A study of Mus musculus with 4 samples.

Results

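Aminoacyl-tRNA synthetases are the enzymes that join each amino acid to its tRNA, and their transcripts were followed here in cytotoxic T lymphocytes (CTLs) and in Tc17 cells, the IL-17-producing form of CD8+ T cells. Members were taken by gene symbol, as 20 cytosolic and 15 mitochondrial synthetases, but the gene family was chosen with earlier results of these data known. They were read from the probe sets whose platform annotation names 1 of them, with the brightest probe set used for a gene that had several. Of these 35 genes, 33 were measured by a probe set that names no other gene, among 19938 such genes, and all 33 were among the 14953 genes bright enough to be tested. *Aars* lay only on a probe set shared with *Exosc6*, and *Dars* was not analysed here, which left 18 cytosolic and 15 mitochondrial members.

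The arrays served in the study to define the expression profiles of the 2 cell types. CD8+ T cells, described as naive, came from spleen and lymph nodes of WT C57BL/6 mice and were purified by magnetic negative selection. Both cultures ran for 2 days in RPMI with fetal calf serum, IL-2 and with IFN-γ blocked by antibody, and the Tc17 cultures also received IL-6 and TGF-β, so the groups share IL-2 and the IFN-γ block. There were 2 biological replicates per group and 1 array per replicate, 4 in all. The study's methods describe young adult mice matched for age and sex, and for Tc17 priming they also name plate-bound anti-CD3 and soluble anti-CD28, which the array labels do not mention for either group. The labels do not give the number of animals behind the replicates, and the spread behind each p-value is only that of these cultures, which may be technical. Values are log2 signals, and every difference below is Tc17 minus CTL on that scale, ± SE from limma with n = 2 per group. limma moderates each SE with the spread of all tested genes, so it is not the spread of that gene's replicates alone. A gene was called when its p, adjusted by Benjamini-Hochberg over all tested genes, was under 0.05.

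The labels were checked against marker genes. The T cell genes *Cd2*, *Cd3e*, *Cd8a* and *Cd8b1* ranged from 7.96 to 10.08 over the 4 arrays, whereas 10 markers of B cells, CD4 T cells, myeloid, dendritic and NK cells lay between 1.92 and 3.28. Of those 40 values, 3 reached the median of their array (3.18 to 3.20). *Il17a*, the signature cytokine of Tc17 cells, was at 4.09 and 3.74 in CTLs and rose to 6.41 and 6.21 in Tc17 cells. *Ifng*, the CTL cytokine, was at 10.57 and 10.08 and fell to 5.91 and 6.24. Of the 4 measured markers of each type, 3 CTL markers fell and 3 Tc17 markers rose. *Prf1*, the CTL perforin gene, was higher in both Tc17 arrays without passing (0.25, adjusted p = 0.267), and *Il23r*, the IL-23 receptor gene of Tc17 cells, differed by 0.44 (adjusted p = 0.0970). Arrays of 1 group correlated at 0.993 in both groups, and arrays of different groups at 0.967 to 0.973. No array stood apart by this measure.

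Each synthetase serves 1 amino acid, with the exception of *Eprs*, which encodes a fused enzyme for glutamate and proline. Several cytosolic synthetases are held together with scaffold proteins in the multisynthetase complex, while others work free of it. Mitochondria translate their own few messages with separate synthetases that are encoded in the nucleus and imported, and the products of *Gars* and *Kars* serve both compartments. Many cytosolic synthetase genes are textbook targets of ATF4, the transcription factor of the integrated stress response that is raised by amino acid shortage, and activated T cells have a high demand for amino acids and protein synthesis.

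The cytosolic synthetases were mostly lower in Tc17 cells than in CTLs. Of 18 tested, 15 fell, 1 rose (*Qars*) and 2 did not pass the test (*Kars* and *Vars*), with a median difference of -0.65 and a range from -1.15 to 0.64. Over all tested genes, 1113 fell (7.44%) and 1229 rose (8.22%), with a median difference of 0.02. The share called can vary with signal level. Among the 2231 tested genes whose mean level lay within the range of the cytosolic members (6.72 to 9.66), 17.7% fell. The share that rose in that range was not taken. Both Tc17 arrays were below both CTL arrays for 17 of the 18 cytosolic genes and above them for 1, against 24.8% and 29.6% of all tested genes. In bulk RNA, fewer cells carrying a transcript and less of it per cell cannot be told apart. Relative to the CTL means, the median cytosolic member was shifted by -0.70 in Tc17 replicate 1 and by -0.71 in replicate 2. The count was 10 without Tc17 replicate 2, 11 without either CTL array and 13 without Tc17 replicate 1. *Cars*, *Eprs*, *Gars*, *Lars*, *Nars* and *Tars* passed the test in every setting tried.

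**Figure D1:**
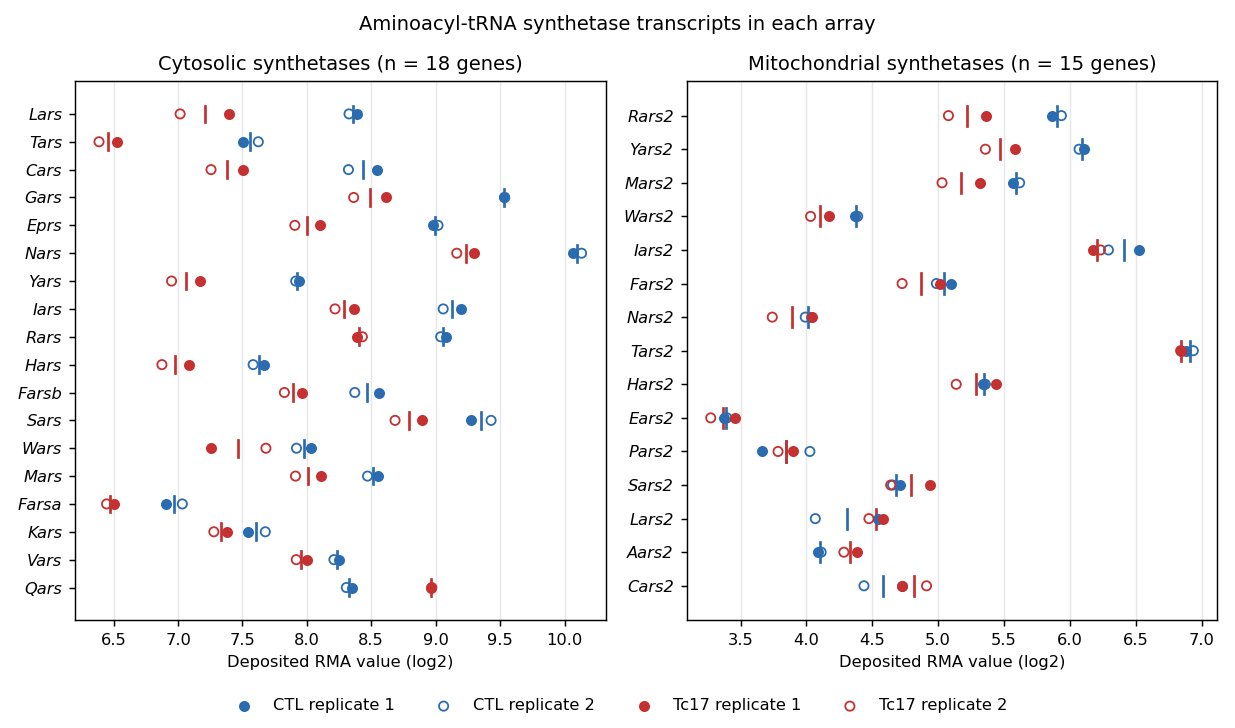
Log2 signal (x axis) of each of the 33 synthetases (y axis) on the 4 arrays, 2 CTL and 2 Tc17, with cytosolic enzymes apart from mitochondrial ones. For 17 of 18 cytosolic enzymes the Tc17 points lie to the left of the CTL points, *Qars* is the exception, and for 7 of 15 mitochondrial enzymes the groups overlap.

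Members of the multisynthetase complex were described first. Of 7 tested, 5 fell, *Qars* rose and *Kars* did not pass, with a median difference of -0.65. *Lars*, the leucyl-tRNA synthetase, which is also known as a leucine sensor for mTORC1, was at 8.39 and 8.33 in CTLs and at 7.40 and 7.02 in Tc17 cells. It fell by 1.15 ± 0.15, the largest decrease of any member (adjusted p = 4.07e-04, 2.22-fold). *Eprs*, the glutamyl-prolyl enzyme, was at 8.98 and 9.02 in CTLs and at 8.10 and 7.91 in Tc17 cells (-0.99 ± 0.13, adjusted p = 4.63e-04). In both genes the Tc17 arrays lay well below both CTL arrays, with replicate 2 the lower.

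*Iars*, for isoleucine, was at 9.20 and 9.06 in CTLs and at 8.36 and 8.22 in Tc17 cells (-0.84 ± 0.13, adjusted p = 0.00140). A second probe set of *Iars* differed by -0.80, so both gave a similar decrease. *Rars*, for arginine, was at 9.08 and 9.04 against 8.39 and 8.43 (-0.65 ± 0.13, adjusted p = 0.00461). *Mars*, for methionine and therefore also for the initiator tRNA, was at 8.55 and 8.47 against 8.11 and 7.91 (-0.50 ± 0.13, adjusted p = 0.0256), and its call was lost without either CTL array or Tc17 replicate 2. For these 3 genes, too, no Tc17 array reached the lower CTL array. *Kars*, for lysine, was at 7.54 and 7.68 against 7.38 and 7.28, also without overlap, and its difference of -0.28 ± 0.13 had a 95% interval from -0.56 to 0.01 (adjusted p = 0.197).

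*Qars*, the glutaminyl-tRNA synthetase, went the other way. It was at 8.35 and 8.31 in CTLs and at 8.96 and 8.97 in Tc17 cells, a rise of 0.64 ± 0.12 (adjusted p = 0.00515, 1.56-fold). The Tc17 arrays were almost equal and both above the CTL arrays. Its difference lay between 0.62 and 0.66 when any 1 array was left out, and it passed each time.

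Among the 11 tested cytosolic members outside the complex, 10 fell and none rose, with a median difference of -0.64. *Tars*, for threonine, was at 7.50 and 7.62 in CTLs and at 6.53 and 6.39 in Tc17 cells (-1.11 ± 0.13, adjusted p = 2.16e-04, 2.15-fold). *Cars*, for cysteine, was at 8.54 and 8.32 against 7.50 and 7.26 (-1.05 ± 0.14, adjusted p = 5.40e-04, 2.08-fold). *Gars*, whose product charges glycine tRNA in cytosol and mitochondria, was at 9.53 and 9.54 against 8.61 and 8.36 (-1.04 ± 0.14, adjusted p = 4.13e-04, 2.06-fold). With *Lars*, these were the members that fell more than 2-fold.

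*Nars*, for asparagine, was at 10.06 and 10.13 in CTLs and at 9.30 and 9.16 in Tc17 cells (-0.87 ± 0.13, adjusted p = 9.58e-04). *Yars*, for tyrosine, was at 7.94 and 7.91 against 7.17 and 6.95 (-0.86 ± 0.13, adjusted p = 0.00124). *Hars*, for histidine, was at 7.67 and 7.58 against 7.09 and 6.87 (-0.64 ± 0.13, adjusted p = 0.00706), and its call was lost without Tc17 replicate 2. In each of them the higher Tc17 array stayed below the lower CTL array.

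Phenylalanyl-tRNA synthetase is built from 2 kinds of subunit, and both transcripts fell. *Farsb*, encoding the beta subunit, was at 8.56 and 8.37 against 7.96 and 7.83 (-0.57 ± 0.13, adjusted p = 0.0140). *Farsa*, encoding the alpha subunit, was at 6.91 and 7.03 against 6.50 and 6.44 (-0.50 ± 0.13, adjusted p = 0.0222). The *Farsa* call was lost when any 1 array was left out, and that of *Farsb* without CTL replicate 1 or Tc17 replicate 2.

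*Sars*, for serine, was at 9.27 and 9.43 in CTLs and at 8.89 and 8.68 in Tc17 cells (-0.56 ± 0.14, adjusted p = 0.0166), and passed neither without CTL replicate 2 nor without Tc17 replicate 2. *Wars*, for tryptophan, is a known interferon-inducible gene. It was at 8.03 and 7.92 against 7.25 and 7.68, the widest gap between Tc17 replicates among the cytosolic members, and its difference of -0.51 ± 0.16 was the closest to the threshold of those that passed (adjusted p = 0.0493). Without Tc17 replicate 1 the *Wars* difference was -0.30, and it passed neither then nor without either CTL array. *Vars*, for valine, was lower on both Tc17 arrays than on either CTL array, with a difference of -0.27 ± 0.13 and a 95% interval from -0.55 to 0.00 (adjusted p = 0.191).

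**Figure D2:**
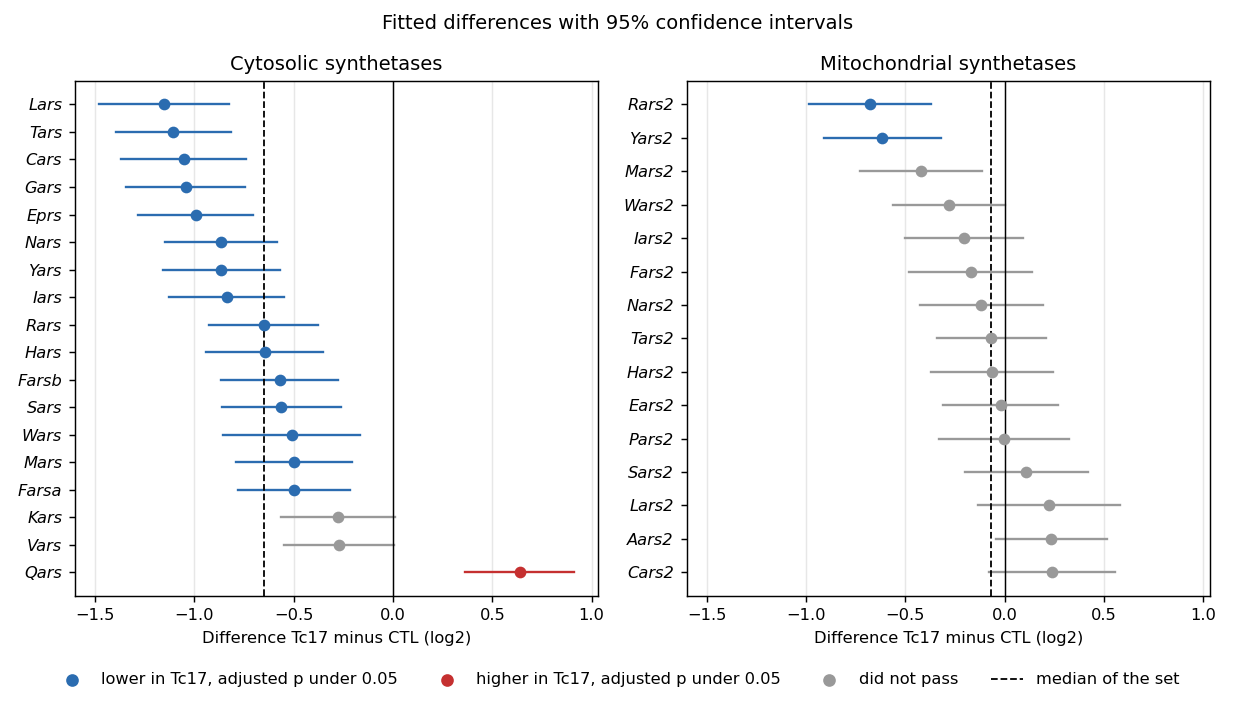
Difference Tc17 minus CTL (log2, x axis) of each synthetase, with its 95% confidence interval from limma as a bar. Cytosolic enzymes spread from -1.15 (*Lars*) to 0.64 (*Qars*), and mitochondrial enzymes from -0.68 (*Rars2*) to 0.24 (*Cars2*).

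Of the cytosolic genes commonly listed as ATF4 targets, 11 were tested and 11 fell, with a median difference of -0.87. The other 7 cytosolic members had a median of -0.50, with 4 that fell (*Farsa*, *Farsb*, *Hars* and *Rars*), 1 that rose (*Qars*) and 2 that did not pass (*Kars* and *Vars*). By enzyme class, which parts synthetases by the fold of their catalytic site, 8 of 10 class I members fell (median -0.74) and 8 of 9 class II members fell (median -0.64), with *Eprs* counted in both. These counts stand beside 15 decreases among all 18 tested cytosolic members. Of all tested genes 7.44% fell, and 17.7% of those in the level range of the cytosolic members. The difference between the subsets was not tested.

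The mitochondrial synthetases gave few calls. Of 15 tested, 2 fell, none rose and 13 did not pass (3 lower and 0 higher at an unadjusted p under 0.05), with a median difference of -0.07 and a range from -0.68 to 0.24. They were dimmer than the cytosolic members, at mean levels of 3.38 to 6.88, and of the 7922 tested genes in that range of level 8.98% fell. Both Tc17 arrays were below both CTL arrays for 6 of them and above for 2, and the groups overlapped for 7, against 24.8%, 29.6% and 45.6% of all tested genes. The median shift was 0.03 in Tc17 replicate 1 and -0.18 in replicate 2, so the sign of the median followed 1 array. At low signal, array background shrinks a difference, and its part in the smaller shifts was not tested.

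*Rars2*, the mitochondrial arginyl-tRNA synthetase, was at 5.86 and 5.94 in CTLs and at 5.36 and 5.08 in Tc17 cells (-0.68 ± 0.14, adjusted p = 0.00663, 1.60-fold). *Yars2*, for tyrosine, was at 6.11 and 6.07 against 5.59 and 5.36 (-0.62 ± 0.13, adjusted p = 0.00915, 1.53-fold). Without Tc17 replicate 2 the differences were -0.54 and -0.50, in that order, and neither passed. *Mars2*, for methionine, was at 5.57 and 5.62 against 5.32 and 5.03, with no overlap between groups, and its difference of -0.42 ± 0.14 had a 95% interval from -0.73 to -0.11 (adjusted p = 0.0678). It passed without Tc17 replicate 1 (-0.56, adjusted p = 0.0416).

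The remaining mitochondrial members did not pass, with differences from -0.28 to 0.24. *Wars2* differed by -0.28 (95% interval -0.56 to 0.00) and *Iars2* by -0.21 (-0.50 to 0.09), both lower in Tc17 cells without overlap between groups. *Fars2* differed by -0.17 (-0.48 to 0.14), with overlap. *Nars2* (-0.12), *Tars2* (-0.07), *Hars2* (-0.06), *Ears2* (-0.02), *Pars2* (-0.00) and *Sars2* (0.11) were closer to 0. Of these, only *Tars2* was lower without overlap. On the positive side were *Lars2* at 0.22 (-0.13 to 0.58), *Aars2* at 0.23 (-0.04 to 0.51) and *Cars2* at 0.24 (-0.08 to 0.56). *Aars2*, for alanine, was at 4.09 and 4.11 in CTLs and at 4.38 and 4.28 in Tc17 cells, and *Cars2*, for cysteine, at 4.72 and 4.44 against 4.72 and 4.91. For each of them both Tc17 arrays were above both CTL arrays, without passing the test. For *Cars2* the margin was slight, with 4.7233 in Tc17 replicate 1 against 4.72265 in CTL replicate 1.

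Cytosolic enzymes were next set beside the mitochondrial enzyme for the same amino acid, which gave 15 pairs, with *Fars2* beside both *Farsa* and *Farsb*, and *Eprs* beside both *Ears2* and *Pars2*. The cytosolic difference was the more negative in 14 of 15 pairs. The cytosolic minus the mitochondrial difference had a median of -0.63 and was most negative for *Lars* against *Lars2* (-1.38), *Cars* against *Cars2* (-1.29) and *Tars* against *Tars2* (-1.04). The exception was arginine, where *Rars* and *Rars2* fell by 0.65 and 0.68 and the pair differed by 0.03. For methionine (-0.08), tryptophan (-0.23) and tyrosine (-0.25) the pairs were also close. The ratio of the cytosolic to the mitochondrial enzyme within an array overlapped between groups for arginine, methionine and tryptophan. In the other 12 pairs that ratio was lower in both Tc17 arrays than in both CTL arrays. No share over all genes was taken for such ratios, and 54.4% of single tested genes had no overlap between groups, in either direction. The mitochondrial enzymes were the dimmer set, and the part of low signal in these ratios was not tested. Pairs that share an enzyme are not independent, and the difference over the pairs was not tested.

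**Figure D3:**
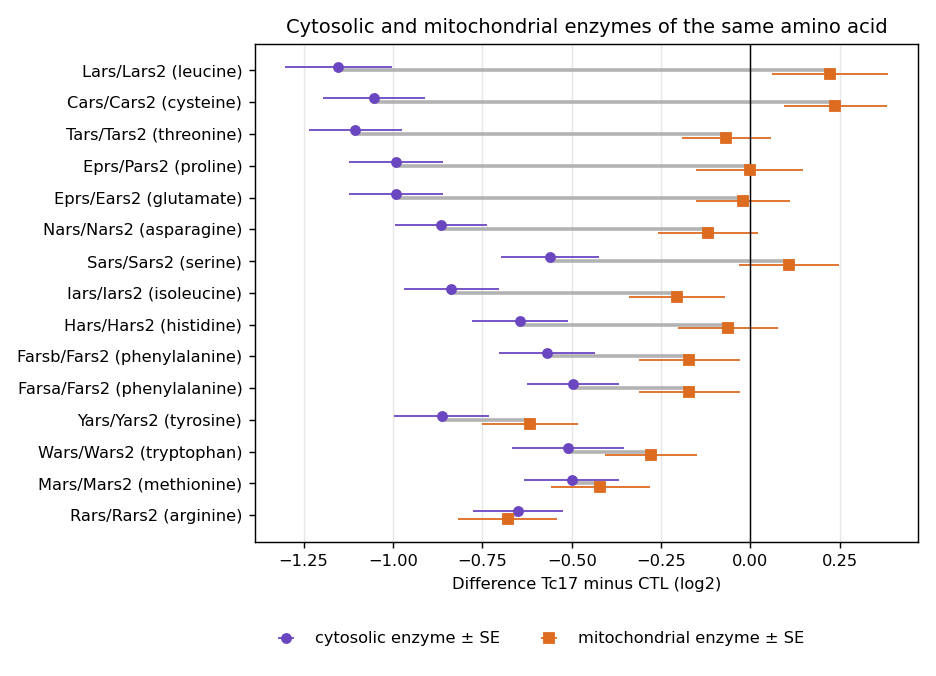
Difference Tc17 minus CTL (log2) of the cytosolic and of the mitochondrial synthetase for the same amino acid, each pair joined by a line. The difference is on the x axis, and the cytosolic point lies further left in 14 of 15 pairs. The widest gap is that of *Lars* and *Lars2* (-1.38), and *Rars* and *Rars2* lie at nearly the same difference.

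Tc17 replicate 2 was below replicate 1 for 28 of the 33 members, against 54.8% of all tested genes. The median gap was -0.15 over the members and -0.02 over all tested genes. It was present in both compartments (15 of 18 cytosolic and 13 of 15 mitochondrial members). Its source was not tested.

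RefSeq promoter windows, 300 bases from 250 before to 50 after the transcription start (GRCm38.p6), were read for 24 members, 11 cytosolic and 13 mitochondrial. None was read for *Cars*, *Hars*, *Lars*, *Nars*, *Rars*, *Vars*, *Wars*, *Hars2* and *Pars2*. The C/EBP-ATF element, to which ATF4 binds with a C/EBP partner, was searched as TGATGNAA on both strands. It was found in 4 of 11 cytosolic windows (36.4%), in 0 of 13 mitochondrial windows, and in 1304 of all 32851 windows (3.97%). The E-box CACGTG, read on both strands, was found in 3 of 11 cytosolic windows (*Tars*, *Iars* and *Farsb*), in 1 of 13 mitochondrial windows (*Ears2*) and in 7.15% of all windows. These letters are a description of the windows, and no binding was measured.

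The 4 cytosolic genes with the C/EBP-ATF letters, *Tars*, *Gars*, *Yars* and *Iars*, all fell, as did 5 of the 7 cytosolic members whose windows lack them (*Eprs*, *Farsa*, *Farsb*, *Mars* and *Sars*), while *Kars* did not pass and *Qars* rose. *Kars* and *Qars* were the only cytosolic members with a window that were not called lower. These are too few to tell whether the letters separate the members that fell from the others. The 4 sites are printed 5′ to 3′ on the strand of the gene, with the element in capitals. It is read on the opposite strand in *Tars*, *Gars* and *Iars*, and on the strand of the gene in *Yars*. The first capital letter as printed lies at -15 in *Tars* and -30 in *Gars*, counted back from the transcription start. It lies at 4 in *Yars* and 8 in *Iars*, counted forward. Read in the direction of the element, the sites of *Tars*, *Iars* and *Yars* share the same 8 letters. That of *Gars* differs at the base written N.
Tars, chr15:11399655-11399684, minus strand: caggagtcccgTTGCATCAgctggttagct
Gars, chr6:55037960-55037989, plus strand: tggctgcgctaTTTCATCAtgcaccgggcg
Yars, chr4:129189895-129189924, plus strand: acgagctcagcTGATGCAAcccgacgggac
Iars, chr13:49682126-49682155, plus strand: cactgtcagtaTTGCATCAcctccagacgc

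Genes that work with the synthetases were described by the same rule, from lists also chosen with earlier results of these data known. Their counts stand beside the 7.44% of all tested genes that fell and the 8.22% that rose. Those shares are not matched for level. In the level range of the cytosolic members 17.7% of tested genes fell, and in that of the mitochondrial members 8.98%. The scaffold proteins of the multisynthetase complex gave 2 decreases among 3, *Eef1e1* (-1.26 ± 0.14) and *Aimp2* (-0.76 ± 0.13), while *Aimp1* differed by -0.21. Other synthetases and charging enzymes gave no call in either direction among 10 tested (median -0.11), with the smallest p for *Aarsd1*, an editing factor for mischarged tRNA, at -0.43 ± 0.17 (adjusted p = 0.134). At an unadjusted p under 0.05, 1 of them was lower and 0 were higher, and without Tc17 replicate 1 there was 1 decrease.

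Of 15 genes of tRNA end processing, splicing and export, 7 fell and none rose (median -0.42). *Trnt1*, which adds the CCA end that synthetases charge, was at 6.87 and 6.94 in CTLs and at 5.75 and 5.78 in Tc17 cells (-1.14 ± 0.13). *Xpot*, the exporter of tRNA from the nucleus, was at 7.92 and 7.88 against 7.03 and 6.67 (-1.05 ± 0.15). Among 25 tRNA modification genes, 7 fell and none rose (median -0.31), led by the dihydrouridine synthase *Dus2* (-0.83 ± 0.16) and by the methyltransferase *Nsun2* (-0.75 ± 0.13). Without Tc17 replicate 2 the decreases numbered 4 in each of these 2 lists, and without CTL replicate 1 there were 4 among the modification genes.

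Mitochondrial translation was represented by 2 further lists. Of 77 mitochondrial ribosomal protein genes, 19 fell and none rose (median -0.28), with *Mrps18b* (-0.95 ± 0.13) and *Mrpl47* (-0.88 ± 0.15) the lowest. That count was 11 without CTL replicate 1, 12 without CTL replicate 2 and 4 without Tc17 replicate 2. Of 9 mitochondrial translation factors, 3 fell, led by the elongation factor *Tsfm* (-0.69 ± 0.13) and by *Gfm2* (-0.63 ± 0.13), and *Mrrf* rose (0.57 ± 0.15). The products of *Gfm2* and *Mrrf* act together in ribosome recycling. Without Tc17 replicate 2 only 1 decrease and no increase were called among the factors. Without CTL replicate 2 there was again no increase, and without CTL replicate 1 there were 2 of each direction. In the cytosol, 1 of 6 elongation genes fell, the kinase *Eef2k* (-0.46 ± 0.14) (a single gene, from which nothing is read), with a median of -0.19, and its call was lost when any 1 array was left out.

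The ATF4 program had the lowest median of these lists. Of its 24 tested genes, which hold no synthetase, 20 fell and 1 rose (median -0.94). *Cth*, the cystathionine gamma-lyase that makes cysteine, was at 7.97 and 8.06 in CTLs and at 5.36 and 5.30 in Tc17 cells (-2.68 ± 0.13). *Trib3*, a pseudokinase induced by ATF4, fell by 1.58 ± 0.16, and *Ddit4*, an mTORC1 inhibitor, rose by 0.45 ± 0.13 but did not pass when any 1 array was left out. *Atf4* itself, chosen after its values were seen, was at 7.42 and 7.35 against 6.52 and 6.20 (-1.02 ± 0.14, adjusted p = 6.52e-04). In the list for amino acid sensing, none of 8 genes fell (2 were lower at an unadjusted p under 0.05), and the sestrins *Sesn3* (2.47 ± 0.13) and *Sesn1* (1.04 ± 0.16) rose. Sestrins are stress-induced inhibitors of mTORC1, and they did not move together. The third one, *Sesn2*, which stands in the ATF4 list and is named here after its values were seen, was at 5.86 and 5.52 in CTLs and fell to 4.63 and 4.65 in Tc17 cells (-1.05 ± 0.14, adjusted p = 5.64e-04). Without Tc17 replicate 2 there were 3 increases, and without CTL replicate 2 or Tc17 replicate 1 there was 1 decrease. Whether the synthetases moved with ATF4 was not tested, since 4 arrays in 2 groups allow no correlation.

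**Figure D4:**
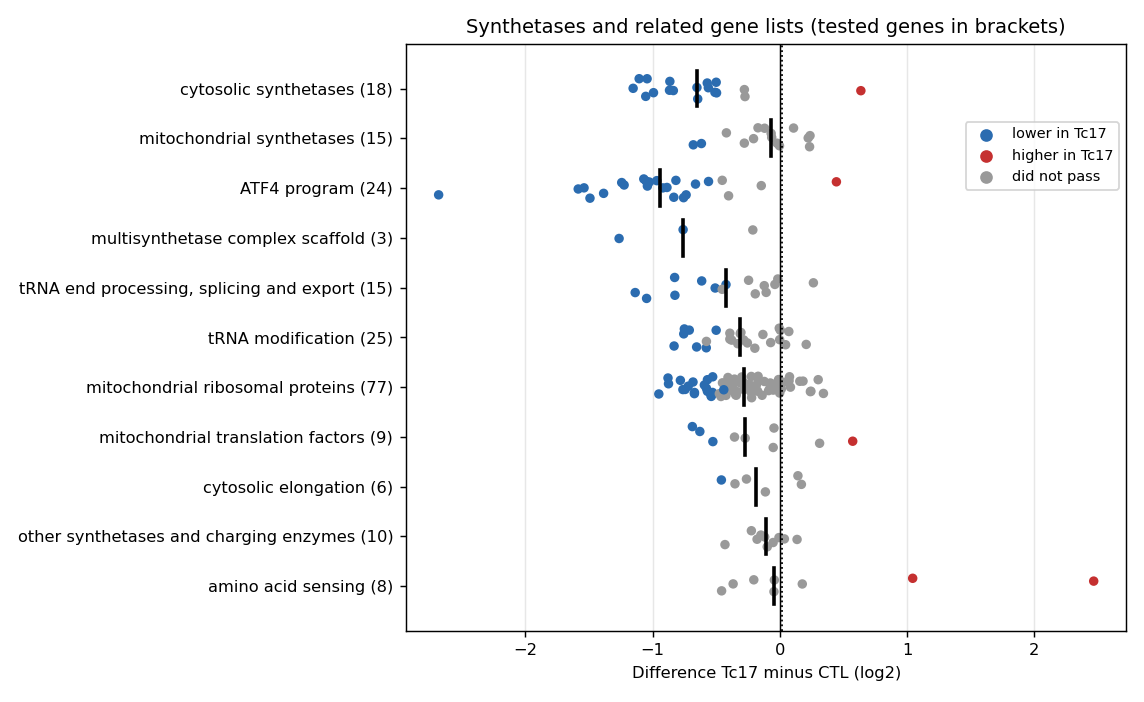
Difference Tc17 minus CTL (log2, x axis) of every tested gene of the synthetase sets and of the related lists, 1 point per gene, with a black bar at the median of each list and a dotted line at the median of all tested genes (0.02). Blue points fell, red points rose and grey points did not pass; the cytosolic synthetases (median -0.65) and the ATF4 program (median -0.94) lie to the left, and the mitochondrial synthetases (median -0.07) near 0.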

How the data were processed

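Total RNA of 4 cultures was copied into cDNA in 2 cycles, labelled with biotin and hybridised to Affymetrix whole-transcript arrays. The authors deposited RMA values, log2 signals after background correction, quantile normalisation and summary per probe set; none of its version, settings and log base is given in the sources used here, and the range of 1.18 to 13.70 is that of log2. Quantile normalisation hides a shift of all transcripts. Of 35557 probe sets, 21789 had 1 gene symbol, 1621 had several and 12147 were unnamed here. The brightest probe set stood for a gene, and 4985 genes under the 25th percentile of gene means (2.59) were left out. limma 3.58.1 (lmFit, eBayes) in R 4.3.3 compared the groups without a replicate block, with Benjamini-Hochberg adjustment over all 14953 tested genes, after the code had been tested on simulated data. The number of arrays, 2 per group, limits the precision. The members and lists were chosen with earlier results of these data known. Genes named were every member, the 2 largest increases and decreases past the threshold per list (or the smallest p), markers, and exceptions marked as such. The labels do not say whether arrays with the same replicate number belong together. They were fitted as unpaired, and the deviations of the same numbers from their group means correlated at 0.020. Alternatives changed the filter, the variance moderation, the normalisation, the probe sets, the block and the arrays used.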

Additional observations from a re-analysis of the deposited data

How the results depend on the processing

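Over all tested genes 2342 were called, 684 when every probe set was tested and adjusted for, and between 1421 (without Tc17 replicate 2) and 1924 with 1 array left out, including 1538 without CTL replicate 1. Testing every probe set gave 6 decreases among the cytosolic synthetases against 15, 0 increases against 1, and 0 mitochondrial decreases against 2. That setting adjusts over more features and also fits the variance moderation anew over all of them. The parts of these changes were not told apart. Leaving out 1 array gave 10 to 13 cytosolic decreases, 1 increase each time and 0 to 3 mitochondrial decreases, with 0 without Tc17 replicate 2. The cytosolic minus mitochondrial median difference was -0.58, -0.52 with cyclic loess, and -0.73 to -0.53 with 1 array left out. Leaving out 1 array turned the sign of members that had not passed: *Nars2* (-0.27 to 0.032), *Hars2* (-0.21 to 0.086), *Ears2* (-0.11 to 0.071), *Pars2* (-0.18 to 0.18), *Sars2* (-0.042 to 0.26) and *Lars2* (-0.014 to 0.46). With every probe set tested, the related lists gave fewer decreases: 10 against 20 for the ATF4 program, 1 against 19 for mitochondrial ribosomal proteins, 0 against 7 for tRNA modification, 1 against 7 for tRNA end processing, 0 against 3 for mitochondrial translation factors, 0 against 1 for cytosolic elongation and 1 against 2 for the scaffold. In the replicate block fit 14 cytosolic decreases were called, and likewise 14 with no filter, with cyclic loess and with median centring. *Wars* no longer passed in the replicate block fit (adjusted p = 0.0552). Whether the replicate numbers pair samples is not stated in the labels. With 2 arrays per group, no detection calls and no probe-level data used here, differences of dim genes are the least certain.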
